A study of Mus musculus with 4 samples.

Results

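The genes described are 10 genes of nicotinic acetylcholine signalling in the mouse cerebellum, read from 10 probe sets of an array that held 22206 probe sets for 19505 named genes. They are 5 receptor subunit genes (Chrna3, Chrna4, Chrna7, Chrnb2 and Chrnb4), 2 chaperone genes (Ric3 and Tmem35a) and 3 genes for Ly6-type modulators (Lynx1, Lypd1 and Ly6h). They were chosen by gene symbol and not by a cut on measured values, though with earlier results of these data known. Each had 1 probe set. Cerebellum RNA came from males of the C57BL/6N strain at an age of 10 weeks, which had taken the neonicotinoid insecticide clothianidin at 50 mg per kg per day for 4 days by mouth, or vehicle over the same 4 days. Both groups performed the rotarod test, in which a mouse keeps its balance on a turning rod, on those days, and brains were dissected directly afterwards. There were 2 clothianidin arrays (replicates 6 and 7) and 2 vehicle arrays (replicates 7 and 9). The labels give only that these are separate samples, so the spread between arrays of a group may be technical.

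Nicotinic receptors are pentameric cation channels opened by acetylcholine, and each combination of subunits has its own pharmacology. Chrna4 and Chrnb2 encode the subunits of the most common heteromeric receptor of the brain, Chrna7 encodes a subunit that forms homomers with high calcium permeability, and Chrna3 and Chrnb4 encode the subunits of the receptor typical of autonomic ganglia and the medial habenula. Ric3 and Tmem35a (NACHO) act in the endoplasmic reticulum and help subunits fold, assemble and leave for the cell surface. Lynx1, Lypd1 (also called Lynx2) and Ly6h encode small membrane-tethered proteins with the three-finger fold of snake toxins, which bind receptor subunits and mostly dampen receptor assembly or response. The cerebellum receives cholinergic mossy fibres, in large part from the vestibular nuclei. Neonicotinoids are agonists at nicotinic receptors and bind those of insects far more tightly than those of mammals.

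None of the 10 genes differed between clothianidin and vehicle beyond the spread between arrays. Their log2 differences, clothianidin minus vehicle, lay between -0.50 for Chrna3 and 0.04 for Chrnb2, with a median of -0.09, beside a median of -0.01 over all probe sets. Of the 10 genes 3 were higher, against 48.1% of all probe sets, and 7 were lower, against 51.2%. All 10 had an adjusted p of 0.997 in limma, a linear model with variances moderated across probe sets, and 0 of the 10 reached an unadjusted limma p under 0.05. Over the whole array limma called 0 of 22206 probe sets (0%) at an adjusted p under 0.05. At an unadjusted p under 0.05 it called 940 (4.23%), of which 511 were higher (2.3%) and 429 lower (1.93%) with clothianidin, and a linear model without moderation called 8 at an adjusted p under 0.05. The groups did not overlap for 1 of the 10 genes, Ly6h, which was lower with clothianidin. Over all probe sets the groups did not overlap for 30.6%, with 15.1% higher and 15.5% lower, so 1 in 10 is no more than the background. With 2 arrays in each group an exact permutation test of a single gene cannot give a two-sided p below 0.333.

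The letters upstream of 4 subunit genes are shown because these genes form natural pairs. Chrna3 and Chrnb4 are neighbours in the genome, and Chrna4 and Chrnb2 are the partners in the main brain receptor. Chrna3, Chrnb4 and Chrna4 were highest on vehicle replicate 7, and Chrnb2 on clothianidin replicate 6. Vehicle replicate 7 was the highest array for 7 of the 10 genes, so sharing it does not set the neighbours apart. Each line gives the 250 bases before the transcription start in RefSeq, build GRCm38.p6, all on the minus strand and written 5′ to 3′ in the direction of transcription, with capitals marking the GC box GGGCGG or its reverse complement CCGCCC, letters read by Sp1-type factors. The stretches are chr9:55026563-55026812 for Chrna3, chr9:55048545-55048794 for Chrnb4, chr2:181039178-181039427 for Chrna4 and chr3:89764633-89764882 for Chrnb2.
Chrna3: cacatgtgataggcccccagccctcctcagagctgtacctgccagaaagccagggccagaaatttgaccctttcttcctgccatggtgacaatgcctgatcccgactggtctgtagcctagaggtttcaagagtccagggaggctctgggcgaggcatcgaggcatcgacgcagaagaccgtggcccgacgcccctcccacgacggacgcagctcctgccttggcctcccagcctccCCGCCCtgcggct
Chrnb4: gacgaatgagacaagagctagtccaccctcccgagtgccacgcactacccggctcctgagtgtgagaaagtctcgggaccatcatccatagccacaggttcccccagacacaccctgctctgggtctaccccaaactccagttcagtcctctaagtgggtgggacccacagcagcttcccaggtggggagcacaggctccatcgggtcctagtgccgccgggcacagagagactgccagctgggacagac
Chrna4: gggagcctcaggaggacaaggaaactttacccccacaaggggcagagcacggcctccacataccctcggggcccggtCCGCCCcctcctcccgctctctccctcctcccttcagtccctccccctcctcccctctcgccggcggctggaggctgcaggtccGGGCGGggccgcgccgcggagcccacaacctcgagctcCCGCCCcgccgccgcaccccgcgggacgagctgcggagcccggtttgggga
Chrnb2: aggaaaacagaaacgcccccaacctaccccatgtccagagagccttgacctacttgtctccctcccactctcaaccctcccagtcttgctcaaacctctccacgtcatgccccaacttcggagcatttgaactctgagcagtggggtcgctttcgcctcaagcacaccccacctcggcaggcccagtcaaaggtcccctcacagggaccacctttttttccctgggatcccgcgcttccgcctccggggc

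Chrna4 had 3 GC boxes in this window, Chrna3 had 1, and Chrnb4 and Chrnb2 had none. The RefSeq table held 7 of the 10 genes in 9 windows (Lypd1 had 3 start sites), and 4 of these 7 genes had a GC box in at least 1 window. By window a GC box was in 6 of the 9, all windows of Lypd1 among them. Over all 32851 windows of the same length 32.7% had a GC box on either strand. A CCAAT box (CCAAT or ATTGG) was in 3 of the 9 windows, against 33.8% of all windows, and a TATA box (TATAAA or TTTATA) in 0 of the 9, against 12.4%. None of these motifs contains another. The guanine and cytosine content was 74.4% for Chrna4, 63.2% for Chrna3, 61.2% for Chrnb4 and 59.6% for Chrnb2, against a median of 52.4% over all windows. These are descriptions of the letters, and no binding was measured.

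Values are log2 probe set summaries as deposited, so 1 unit is a 2-fold step in signal. The brightness of a probe set depends on its own sequence as well as on the transcript, so levels of different genes are not ranked here. As a mark of the dim end of the arrays, 1412 probe sets for olfactory and vomeronasal receptors, which serve smell in the nose, had medians of 4.02 and 4.19 on clothianidin replicates 6 and 7 and 4.18 and 4.33 on vehicle replicates 7 and 9. Their 95th percentiles were 5.85 and 6.10 on the clothianidin arrays and 5.98 and 6.38 on the vehicle arrays. Of the 10 genes, 7 lay above that percentile on all 4 arrays, and Chrna3, Chrnb4 and Ly6h did so on some arrays only. For these 3 genes a difference between arrays is partly or wholly within the dim range. All 10 measured Purkinje cell markers and all 11 measured granule cell markers were above the percentile on every array. So were 5 of 8 markers of midbrain tectum and forebrain and 2 of 8 of brainstem and cerebellar nuclei. The same held for 2 of 10 markers of the medial habenula and interpeduncular nucleus, so passing this mark does not by itself identify the tissue.

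Chrnb2, the β subunit of the main brain receptor, was at 12.08 and 11.62 on the clothianidin arrays, against 11.94 and 11.68 on the vehicle arrays. Both vehicle values lay between the clothianidin values. The log2 difference was 0.04 (standard error 0.30, limma adjusted p = 0.997), and its 95% interval ran from -0.64 to 0.72, that is from 0.64-fold to 1.65-fold. Chrna4, its partner, was at 8.59 and 8.57 with clothianidin, against 8.87 and 8.41 with vehicle. Both clothianidin values lay between the vehicle values. The log2 difference of Chrna4 was -0.06 (standard error 0.29), with a 95% interval from -0.73 to 0.61. On the linear scale the interval of Chrna4 ran from 0.604-fold to 1.52-fold.

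Chrna7 was at 7.17 and 7.03 with clothianidin, against 7.43 and 7.00 with vehicle. Again the clothianidin values fell inside the range of the vehicle values, and the log2 difference was -0.12 with a 95% interval from -0.78 to 0.55. Chrna3 was at 6.10 and 6.01 with clothianidin, against 7.17 and 5.93 with vehicle. A single array, vehicle replicate 7, stood 1.24 above the other vehicle array, while the remaining 3 values lay close together. The log2 difference of Chrna3 was -0.50 (standard error 0.41), with a limma p of 0.261 before adjustment (0.997 after it), and without vehicle replicate 7 it was 0.125, of the opposite sign. Chrnb4, which joins Chrna3 in the ganglionic type of receptor, was at 5.58 and 5.81 with clothianidin, against 6.07 and 5.48 with vehicle. It too was highest on vehicle replicate 7, and its log2 difference was -0.08 with all arrays and 0.215 without that array. On the other 3 arrays Chrnb4 was below the 95th percentile of the olfactory and vomeronasal probe sets.

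**Figure D1:**
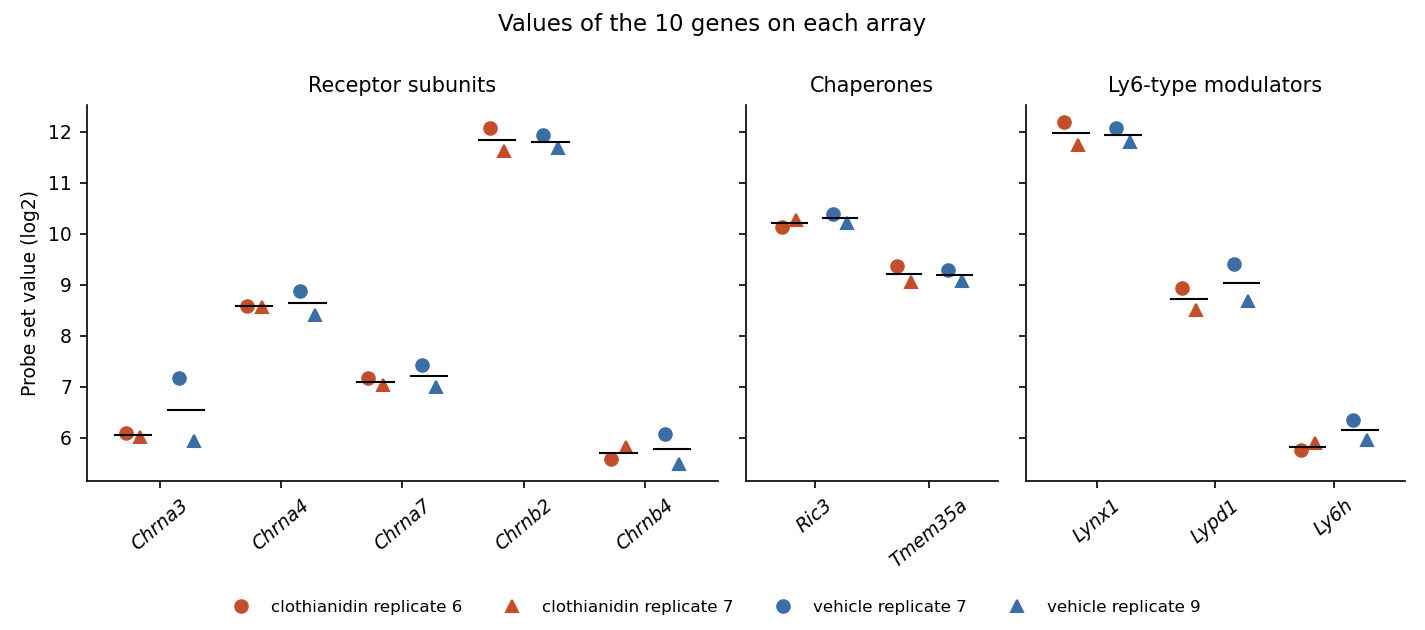
Probe set values (log2, y axis) of the 10 genes on each array, with clothianidin in red on the left and vehicle in blue on the right of each gene, and a bar at each group mean (n = 2). For every gene the clothianidin and vehicle values lie close together, and for Chrna3 vehicle replicate 7 (7.17) stands apart from the other 3 arrays.

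The chaperone genes varied little between arrays. Ric3 was at 10.13 and 10.28 with clothianidin, against 10.39 and 10.22 with vehicle, and had the smallest standard error of the 10 genes, 0.27. Its log2 difference was -0.10 with a 95% interval from -0.73 to 0.53. Tmem35a, whose product is needed for functional homomers of the Chrna7 subunit in mouse neurons, was at 9.37 and 9.06 with clothianidin, against 9.30 and 9.08 with vehicle. The vehicle values lay inside the clothianidin values, and the log2 difference was 0.03 with a 95% interval from -0.62 to 0.67. Both chaperone genes and the Chrna7 subunit gene they serve had intervals that included no difference, and point estimates from -0.12 to 0.03.

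Among the Ly6-type modulators, Lynx1 had group means that nearly coincided. It was at 12.20 and 11.74 with clothianidin, against 12.07 and 11.81 with vehicle, a log2 difference of 0.03 with a 95% interval from -0.65 to 0.71. The RefSeq table lists SLURP-2, another member of the Ly6 family, as a synonym of Lynx1, so the probe set may read both products. Lypd1 was at 8.93 and 8.51 with clothianidin, against 9.41 and 8.68 with vehicle. The groups overlapped, with the highest value on vehicle replicate 7 and the lowest on clothianidin replicate 7. The log2 difference of Lypd1 was -0.33 (standard error 0.34), and it was 0.04 without vehicle replicate 7. Ly6h, whose product limits the amount of receptor at the surface, was at 5.76 and 5.89 with clothianidin, against 6.35 and 5.96 with vehicle. Both clothianidin values were below both vehicle values, but the nearest values of the groups differed by less than the 0.39 between the vehicle arrays. Its log2 difference was -0.33 (standard error 0.28), with a limma p of 0.279 before adjustment (0.997 after it), and on 3 of the 4 arrays it lay within the dim range.

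**Figure D2:**
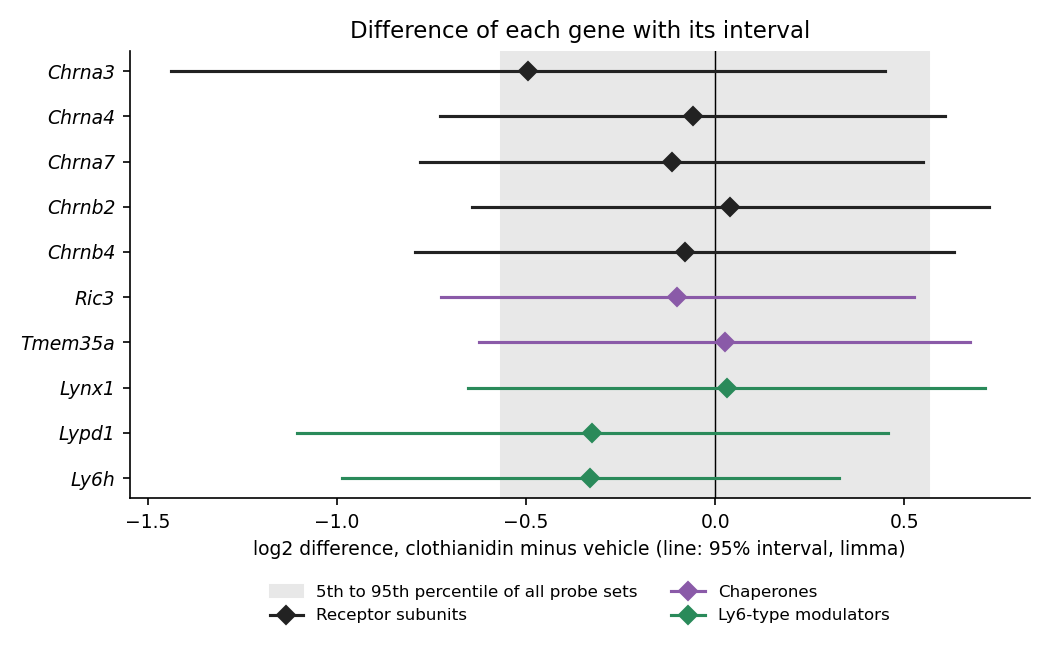
Log2 difference (x axis, clothianidin minus vehicle) of each gene, with its 95% interval from limma as a line and the 5th to 95th percentile of all probe sets, -0.565 to 0.565, shaded. Every interval includes 0 and every difference lies within the shaded range.

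By class, the median log2 difference was -0.08 for the 5 receptor subunits, -0.04 for the 2 chaperones and -0.33 for the 3 Ly6-type modulators. The SD between replicate arrays of the class median was 0.242 for subunits, 0.105 for chaperones and 0.285 for modulators, so the subunit and chaperone medians lay within 1 SD of 0 and the modulator median just beyond it. Without vehicle replicate 7 the medians were 0.17 for subunits, 0.06 for chaperones and 0.04 for modulators. With vehicle replicate 9 left out instead, they were -0.33 for subunits, -0.135 for chaperones and -0.525 for modulators. The sign of each class median therefore depended on which vehicle array was kept. The gap between the vehicle arrays was larger than the group difference for 10 of the 10 genes, while over all probe sets this held for 62.7%.

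The 10 genes shared a pattern across arrays that cut across the groups, and it was seen after their values were examined, so it has no test. Vehicle replicate 7 was above vehicle replicate 9 for 10 of 10 genes, where 54.4% of all probe sets had that order. Several other lists leaned the same way, with 7 of 8 endothelium and pericyte, 7 of 8 meninges, 6 of 7 choroid plexus and 8 of 11 granule cell markers. Lower counts were 4 of 11 other nicotinic subunits, 6 of 16 in the list of other Ly6 genes and Thy1, and 3 of 8 midbrain tectum and forebrain markers. Vehicle replicate 7 was the highest of the 4 arrays for 7 of the 10 genes (Chrna3, Chrna4, Chrna7, Chrnb4, Ric3, Lypd1 and Ly6h), against 26.6% of all probe sets. The other 3 genes, Chrnb2, Tmem35a and Lynx1, were highest on clothianidin replicate 6 (26.2% of all probe sets), with vehicle replicate 7 next and both remaining arrays lower. That pair of arrays, clothianidin replicate 6 and vehicle replicate 7, held the top values for 7 of the 10 genes in all, against 21.1% of all probe sets. Genes are not independent replicates, and these counts describe 4 arrays.

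The marker lists of brainstem and cerebellar nuclei, medial habenula and interpeduncular nucleus, and midbrain tectum and forebrain each summed highest on vehicle replicate 7. That array was the highest for 4 of 8 brainstem and cerebellar nuclei markers, 4 of 10 markers of the medial habenula and interpeduncular nucleus and 2 of 8 markers of midbrain tectum and forebrain, against 26.6% of all probe sets. This was not particular to these regions. Oligodendrocyte markers also summed highest there, at 113.2 against 111.0 on vehicle replicate 9, with 5 of 9 highest on that array. So did endothelium and pericyte markers, at 85.8 against 81.9, with 4 of 8 highest on that array. The remaining marker lists, Purkinje and granule cells among them, summed highest on other arrays. Slc17a6 and Tcf7l2 are named as the markers with the largest differences in their lists, after their values were seen. Slc17a6, the vesicular glutamate transporter gene of brainstem and cerebellar nuclei neurons, was at 8.02 and 8.13 with clothianidin, against 9.57 and 8.62 with vehicle. Tcf7l2, a transcription factor gene strongly expressed in thalamus and midbrain, was at 9.94 and 9.11 with clothianidin, against 11.70 and 9.69 with vehicle. Of the 8 measured brainstem and cerebellar nuclei markers 6 were lower with clothianidin, and the summed log2 level of that list was 45.5 and 44.9 on the clothianidin arrays, against 49.2 on vehicle replicate 7 and 46.0 on vehicle replicate 9. In this list 5 of the 8 markers, Hoxa2, Hoxa3, Hoxb3, Tbr1 and Pou4f1, were in the dim range on every array. The 10 markers of the medial habenula and interpeduncular nucleus, where Chrna3 and Chrnb4 are abundant, summed to 50.1 and 50.1 with clothianidin. On vehicle replicate 7 they summed to 51.7 and on vehicle replicate 9 to 48.4. Of these markers 6, among them Tac2, Gpr151 and Chat, were in the dim range on every array. Sst, named after its values were seen, had the widest gap between the vehicle arrays in that list, at 7.29 and 5.72. With clothianidin Sst was at 5.99 and 6.72. Pou4f1 counts both in that list and in that of brainstem and cerebellar nuclei, so these lists are not separate. The 8 markers of midbrain tectum and forebrain summed to 57.5 and 57.0 with clothianidin, against 58.6 and 58.3 with vehicle replicates 7 and 9, and 3 of the 8 were higher on vehicle replicate 7 than on vehicle replicate 9. Without Tcf7l2, an alternative chosen after seeing the data, the other 7 summed to 47.6 and 47.9 with clothianidin, against 46.9 on vehicle replicate 7 and 48.6 on vehicle replicate 9, so the order of the vehicle arrays turned. Prox1 of that list, also named after its values were seen, was lowest on vehicle replicate 7, at 10.59. The part of such regions in the values of Chrna3, Chrnb4 or Lypd1 was not tested, and in bulk tissue fewer cells of a type and less RNA per cell cannot be told apart.

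**Figure D3:**
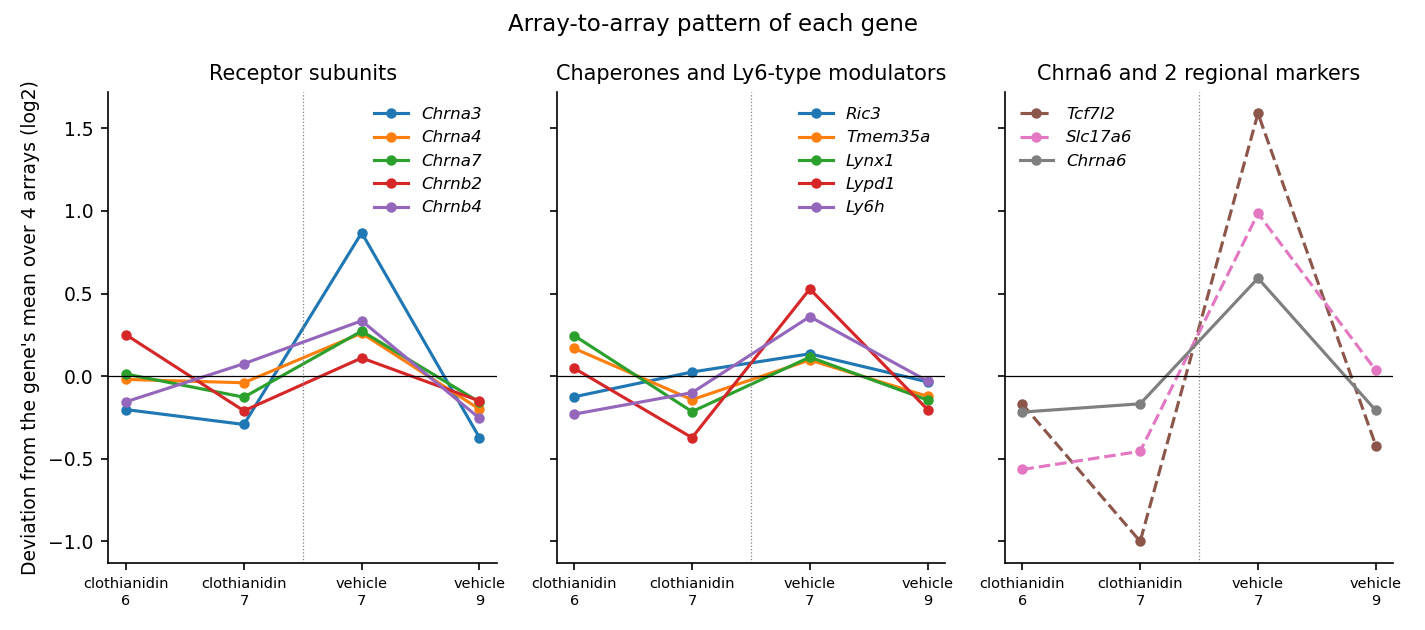
Deviation of each gene from its own mean over the 4 arrays (y axis, log2) on clothianidin replicates 6 and 7 and vehicle replicates 7 and 9 (x axis), for the subunits, for the accessory genes, and for Chrna6 with the regional markers Tcf7l2 and Slc17a6 (dashed). Lines only join the points of a gene; Chrna3, Chrna6, Tcf7l2 and Slc17a6 are highest on vehicle replicate 7, as are 2 of the 8 markers in the list of Tcf7l2 and 4 of the 8 in that of Slc17a6.

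The other 11 nicotinic subunit genes on the array were at or near the dim end. Of these, 10 lay below the 95th percentile of the olfactory and vomeronasal probe sets on all 4 arrays, including Chrna1, Chrnd and Chrng of the fetal muscle receptor, Chrne of the adult muscle receptor and Chrna9 of the cochlear receptor. Chrna6, a subunit of midbrain dopamine neurons and retinal afferents, exceeded it on 1 array only. Chrna6 was at 5.48 and 5.53 with clothianidin, against 6.29 on vehicle replicate 7 and 5.49 on vehicle replicate 9, the same high array as Chrna3. Its log2 difference of -0.39 was 0.015 without that array. As a list these genes had 4 higher and 7 lower with a median log2 difference of -0.135. Only Chrna10, the partner of Chrna9, had an unadjusted limma p under 0.05 among them, against 4.23% of all probe sets. It was at 3.90 and 3.94 with clothianidin, against 3.28 and 3.29 with vehicle, with a limma p of 0.0435 before and 0.997 after adjustment, all 4 values being below the median of the olfactory and vomeronasal probe sets. The log2 differences of the rest ran from -0.425 for Chrnd and -0.35 for Chrnb1 to 0.165 for Chrne, with Chrng at -0.295, Chrnb3 at -0.15, Chrna1 at -0.135, Chrna5 at -0.08, Chrna2 at 0.03 and Chrna9 at 0.01.

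**Figure D4:**
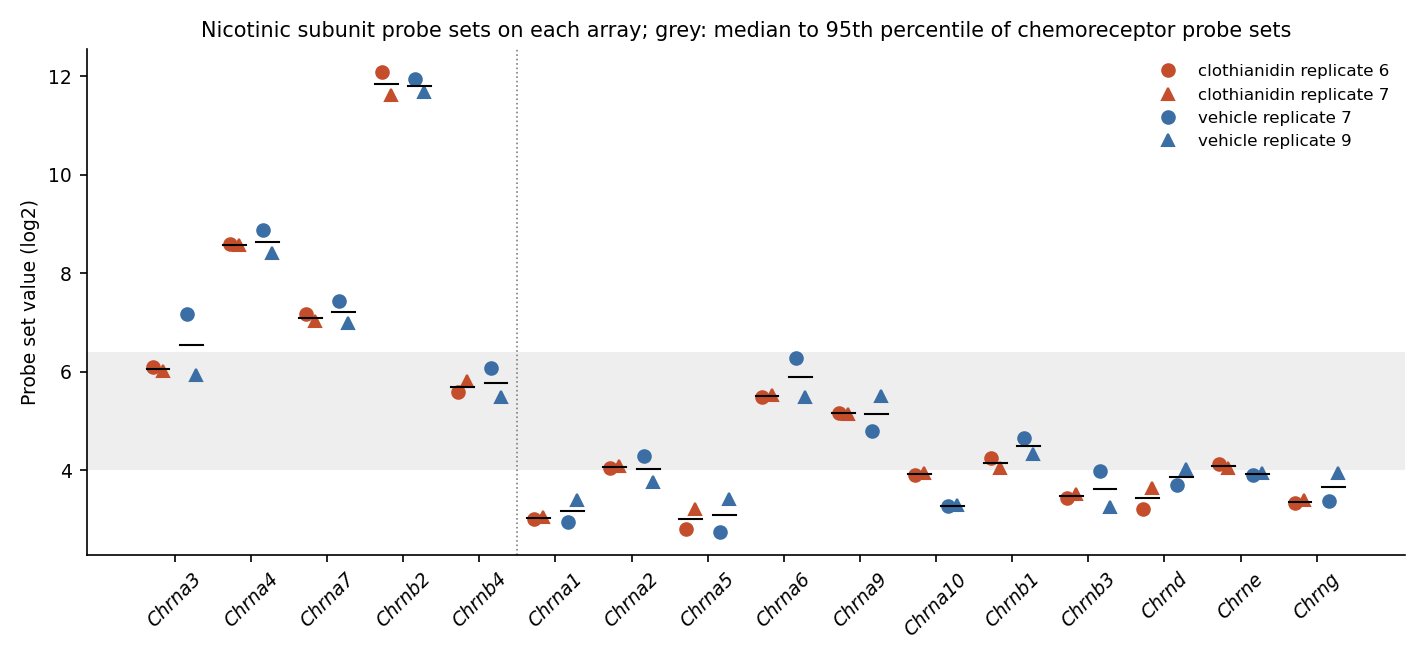
Probe set values (log2, y axis) of the 16 nicotinic subunit genes on each array, with clothianidin (red) left of vehicle (blue), bars at group means (n = 2), the 5 described subunits left of the dotted line, and a grey band from the lowest array median (4.02) to the highest array 95th percentile (6.38) of olfactory and vomeronasal receptor probe sets. Chrna4, Chrna7 and Chrnb2 lie above the band on all arrays, and the 11 subunits to the right of the dotted line lie in or below it.

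Further genes of the Ly6 family, listed together with Thy1, were also without a called difference. Of 16 measured genes 6 were higher and 10 lower, with a median log2 difference of -0.03, and 0 had an unadjusted limma p under 0.05. The groups did not overlap for 4 of the 16, 2 in each direction, against 30.6% of all probe sets. Thy1 encodes an abundant neuronal surface glycoprotein that is not of the Ly6 family, but the gene was counted in this list. Thy1 was at 13.84 and 13.66 with clothianidin, against 13.52 and 12.90 with vehicle. Its log2 difference was 0.54 (standard error 0.31). The groups of Thy1 did not overlap, and without vehicle replicate 9 the difference was 0.23. Ly6g6e, Ly6m and Ly6k had log2 differences of -0.55, -0.42 and 0.415 and were in the dim range on all arrays. Lypd6, a modulator chosen here after its values were seen because it is bright and neuronal, was at 11.51 and 11.03 with clothianidin, against 11.19 and 11.28 with vehicle, and showed no separation.

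Factors that act in assembly, trafficking or anchoring of receptors more broadly had 14 of 17 genes higher with clothianidin and a median log2 difference of 0.17. None passed limma over all probe sets, 2 had an unadjusted p under 0.05, both higher (2.3% of all probe sets), and the groups did not overlap for 6 higher and 3 lower genes, where 15.1% of all probe sets were higher and 15.5% lower without overlap. Agrn, which encodes the agrin proteoglycan that clusters acetylcholine receptors at the nerve-muscle junction, was at 8.10 and 7.37 with clothianidin, against 6.10 and 6.85 with vehicle. Both clothianidin values were above both vehicle values, with a log2 difference of 1.26 (standard error 0.37) and a limma p of 0.00969 before and 0.997 after adjustment. Leaving out vehicle replicate 7 gave 0.885 for Agrn, and leaving out vehicle replicate 9 gave 1.635. On vehicle replicate 7 Agrn was only 0.12 above the 95th percentile of the olfactory and vomeronasal probe sets, so its lowest value was close to the dim range. Sec24d, a coat component of vesicles that leave the endoplasmic reticulum, was at 5.64 and 5.09 with clothianidin, against 4.53 and 4.58 with vehicle, with a limma p of 0.0267 before and 0.997 after adjustment, and was in the dim range on all arrays. Canx, the calnexin chaperone gene, had a log2 difference of 0.465 with groups that did not overlap. Rer1, a retention factor of unassembled subunits in the early secretory pathway, had a log2 difference of 0.76 that was 0.01 without vehicle replicate 9.

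**Figure D5:**
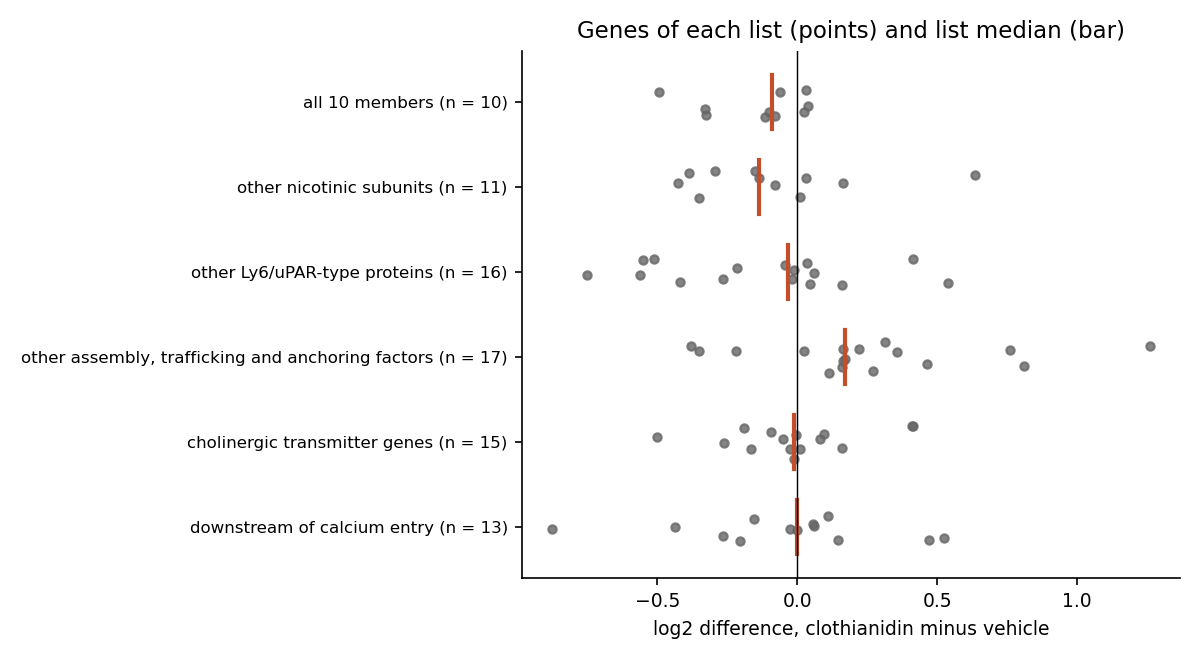
Log2 difference (x axis, clothianidin minus vehicle) of each gene (points, spread vertically for legibility) and the median (red bar) in the 10 genes described and 5 further lists. The median of the 10 genes is -0.09 and that of the assembly, trafficking and anchoring list is 0.17, with Agrn at the far right at 1.26.

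Genes of acetylcholine synthesis, breakdown and muscarinic reception gave no call either. Of 15 genes 6 were higher and 9 lower with a median log2 difference of -0.01, 0 had an unadjusted limma p under 0.05, and 8 were in the dim range on all arrays, among them Chat, the acetylcholine synthesis gene, and Slc18a3, the vesicular acetylcholine transporter gene. Bche, the butyrylcholinesterase gene, was at 5.38 and 5.97 with clothianidin, against 6.71 and 5.64 with vehicle. It was again highest on vehicle replicate 7, and its log2 difference of -0.50 was 0.035 without that array. Bche was above the dim range on 1 array only. Slc5a7, the choline transporter gene, Chka, a choline kinase gene, and Chrm4, a muscarinic receptor gene, had log2 differences of 0.41, 0.415 and -0.26. The difference for Chka was -0.13 without clothianidin replicate 6 and 0.96 without clothianidin replicate 7, and that for Slc5a7 and Chrm4 rested on values in the dim range.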

How the data were processed

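Total RNA from 4 cerebellum samples, accepted above a set integrity number, was amplified, labelled with biotin by GeneChip WT kits and hybridised to 1 array each, per the labels' protocols. The log2 probe set values were deposited as RMA summaries, per the submitters' processing notes, with version, settings and log base not given in the sources used here; base 2 is the scale on which RMA works. No scanner file, scan date or batch was used, so signal over background is unknown and the number of arrays limits the precision. Median log2 values were 6.49 and 6.50 on the clothianidin arrays and 6.50 and 6.54 on the vehicle arrays.

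Names came from a platform annotation (19572 probe sets with 1 symbol, 0 with several, 2634 not named), checked by gene identifier against RefSeq, by which 0 symbols changed. A gene was read from its probe set with the highest mean. limma 3.58.1 in R 4.3.3 (lmFit, eBayes, Benjamini-Hochberg over all 22206 probe sets, threshold 0.05) compared clothianidin with vehicle, with no covariate. The fit was also run on simulated data, with independent noise drawn from its own fitted prior and changes larger than those of the 10 genes. That run therefore cannot show how the fit performs on differences of the size seen here. Moderation drew on a prior SD of 0.306 worth 5.96 degrees of freedom, beside 2 residual ones. The genes and lists were chosen with earlier results of these data known. Named genes were the 10 genes, all nicotinic subunits and, from each further list, the 4 with the smallest limma p. Some listed genes are not reported here. Lists were described by counts and medians, without a set test. Alternatives were median centring, quantile normalization, filters on level, other priors, no moderation, the mean over probe sets and leaving out each array.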

Additional observations from a re-analysis of the deposited data

How the results depend on the processing

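No paired analysis was possible because the clothianidin and vehicle arrays share only 1 replicate number. Leaving out 1 array at a time changed the sign of the log2 difference for 8 of the 10 genes. The median log2 difference ranged from -0.31 to 0.13 for the 10 genes, from -0.33 to 0.17 for receptor subunits, from -0.135 to 0.06 for chaperones and from -0.525 to 0.04 for Ly6-type modulators. Single genes ranged from -1.115 to 0.125 (Chrna3), -0.29 to 0.17 (Chrna4), -0.33 to 0.10 (Chrna7), -0.19 to 0.27 (Chrnb2), -0.375 to 0.215 (Chrnb4), -0.185 to -0.015 (Ric3), -0.13 to 0.18 (Tmem35a), -0.20 to 0.26 (Lynx1), -0.69 to 0.04 (Lypd1) and -0.525 to -0.135 (Ly6h), so only Ric3 and Ly6h kept their sign in these 4 fits. The number of the 10 genes without overlap was 5 to 7 in these fits, where a lone array overlaps less readily by construction, and 0 of the 10 passed an adjusted p of 0.05 in any. Over the array, limma called 0 to 1 probe sets, the 1 being Ttr without clothianidin replicate 6 (adjusted p = 0.0133; named after its value was seen), and 8 without moderation, against 0 with all arrays and moderation. A further quantile normalization gave log2 differences of -0.065 for Chrnb2, -0.061 for Tmem35a and -0.062 for Lynx1, of opposite sign to the reported ones, and 2 genes without overlap (Ric3 and Ly6h) in place of 1; the cause was not tested. Of 117 values under alternatives that kept all arrays, 112 kept direction and side of the threshold, 3 changed sign and 2 counts moved. Among these alternatives only median centring and the quantile normalization could alter a log2 difference, because each gene had 1 probe set. Under the others the direction was fixed in advance, so 112 of 117 is not a measure of robustness. All 3 changes of sign came from the quantile normalization. Chrna3, Chrnb4 and Ly6h were below the filter at the median level and gave no value there; their place near the dim range limits what their values can show.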

Other observations

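Genes downstream of calcium entry through nicotinic receptors, a list that also serves many other signals, had 6 of 13 higher, 6 lower and 1 at 0, with a median log2 difference of 0, and 0 passed limma over all probe sets. Fos, an activity-induced transcription factor gene, was alone in the list below an unadjusted limma threshold of 0.05, with a limma p of 0.0297 before and 0.997 after adjustment (1 of 13 genes, against 4.23% of all probe sets), at 8.18 and 7.50 with clothianidin, against 8.51 and 8.92 with vehicle. The groups did not overlap for 2 higher and 2 lower of the 13 genes, against 15.1% and 15.5% of all probe sets. Creb1, a transcription factor gene, was at 10.21 and 10.43 with clothianidin, against 10.52 and 10.99 with vehicle. Calm2, a calmodulin gene, was at 18.15 and 18.28 with clothianidin, against 17.85 and 17.64 with vehicle. The kinase gene Jak2 was at 9.82 and 9.54 with clothianidin, against 9.13 and 9.18 with vehicle. Before adjustment the limma p was 0.179 for Creb1, 0.122 for Calm2 and 0.092 for Jak2, and after it 0.997 for each. In this list, as among the 10 nicotinic genes, clothianidin replicate 6 and vehicle replicate 7 held the top values for 7 genes, here of 13, and among granule cell markers they did so for 6 of 11, against 21.1% of all probe sets. Counts in further lists, not all given here, fell on both sides of that share. They were 4 of 8 endothelium and pericyte markers, 3 of 7 choroid plexus markers and 5 of 15 cholinergic transmitter genes. Molecular layer and Golgi interneurons had 4 of 10 markers, and the medial habenula and interpeduncular nucleus 4 of 10. Lower counts were 2 of 10 Bergmann glia and astrocyte markers, 1 of 10 Purkinje cell markers and 0 of 4 unipolar brush cell markers. The count was 0 of 11 other nicotinic subunits and 0 of 16 genes in the list of other Ly6 genes and Thy1.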
